A study of Mus musculus with 9 samples.

Results

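The mouse microRNA miR-7219-3p was followed through 9 small RNA libraries of exosomes, nanometre-sized vesicles secreted by cells. It was taken as the entry mmu-miR-7219-3p in the class of mature miRNAs, 1 of 1101 mature miRNAs with reads in any library, and a library without the entry would have counted as 0. The source was RAW264.7, a macrophage cell line of the mouse, grown in medium with fetal bovine serum. Each of 3 groups had 3 libraries: cells left untreated, cells exposed to silica over 24 h, and cells exposed to silica over 48 h. The design text describes the libraries of a group as independent. As all came from this cell line, they do not stand for separate animals. Nothing in the labels gives the culture time of the untreated cells.

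A miRNA is cut from a hairpin in a longer transcript as a pair of arms, of which usually 1 is kept in an Argonaute protein and guides it to mRNAs that match its seed, the bases near its 5′ end. Inhaled silica dust causes silicosis, a lung disease in which macrophages take up the particles and fibroblasts lay down collagen. Published work on silicosis describes miR-7219-3p as a cargo of macrophage exosomes that acts on fibroblasts through Spry1, an inhibitor of receptor tyrosine kinase signalling. The miRNA may have been singled out from these same libraries, so its difference between the groups is not independent evidence of that role.

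In mm10 the hairpin gene Mir7219 lies on chromosome 18, from 68260920 to 68260973 on the minus strand, over 54 bases (GENCODE vM21). This stretch falls in exon 4 of Fam210a, which is read from the same strand, within the 8535 bases of its 3′ untranslated region from 68260187 to 68268721. On the opposite strand it falls in exon 3 of a non-coding transcript of Ldlrad4. How the authors assigned reads that match both the miRNA and these exons is not stated in the labels or headers. Small RNAs that the deposited tables place by coordinates gave 0 entries within 50000 bases of the hairpin in any library. How many entries they place on chromosome 18 was not counted, so this 0 does not show that the locus gives no other small RNA.

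miR-7219-3p was counted in all 9 libraries and its other arm, miR-7219-5p, in 0 of them. A total of 2902 reads were assigned to it. The untreated libraries 1, 2 and 3 held 118, 351 and 128 reads. The 24 h libraries held 147, 606 and 54 reads. The 48 h libraries held 223, 881 and 394 reads. Every library was thus far above 3 counts, which corresponds to 0.360 to 1.39 RPM of mature reads (reads scaled to a common total of mature reads) and is the limit that a count of 0 would allow. The 95% Poisson interval was 40.6 to 70.5 reads for the smallest count, in the 24 h library 3, and 824 to 941 for the largest, in the 48 h library 2. As a share of mature reads, the exact 95% binomial intervals of library 2 lay apart from those of libraries 1 and 3 in untreated (62.5 to 77.3 RPM of mature reads, against at most 34.5) and at 24 h (105 to 123, against at most 43.1). At 48 h library 1 lay apart, at 46.6 to 60.9, and libraries 2 and 3 overlapped, at 98.9 to 113 and 81.2 to 99.2. Both kinds of interval cover counting error only, and the spread within each group exceeds it.

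The libraries held 2158418 to 8331451 reads of mature miRNA. The count was therefore scaled to TMM-normalised CPM of mature miRNA, which allows for depth and for differences in composition. On this scale untreated libraries 1, 2 and 3 stood at 21.97, 59.9 and 29.1 CPM. The 24 h libraries stood at 37.98, 100.4 and 27.99 CPM. The 48 h libraries stood at 64.4, 92.3 and 90.8 CPM. All 48 h libraries were above all untreated libraries, while the 24 h group spanned almost the whole range of the series, from the second lowest to the highest library. A level here is a share of the RNA in the vesicle preparation, so more vesicles that carry the miRNA and more copies in each cannot be told apart.

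**Figure D1:**
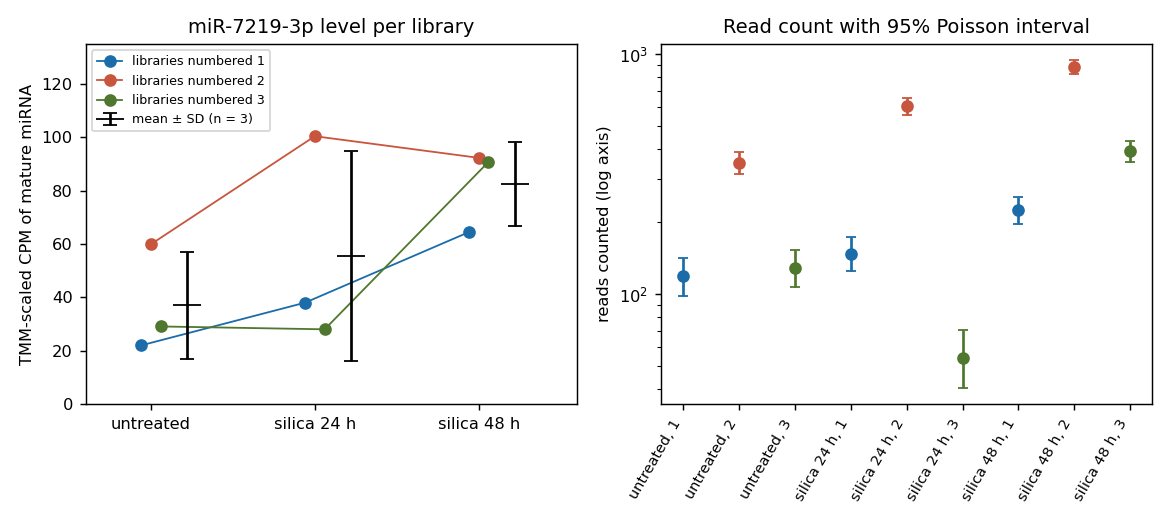
Left, the CPM of miR-7219-3p in each library, with libraries of the same number joined by a line and the mean ± SD of each group in black (n = 3). Right, the reads counted in each library on a log axis with the 95% Poisson interval. The 48 h points lie between 64.4 and 92.3 CPM, above the highest untreated point at 59.9, and the 24 h points run from 27.99 to 100.4.

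The mean was 36.98 ± 20.2 CPM without silica, 55.5 ± 39.3 with 24 h of it and 82.5 ± 15.7 with 48 h (SD, n = 3). The order was thus untreated, 24 h, 48 h, and neither neighbouring pair in it differed beyond the spread: 6 of 9 pairs of libraries had the 24 h value above the untreated one, and 6 of 9 the 48 h value above the 24 h one. The highest library was 2.73 times the lowest in untreated, 3.59 times at 24 h and 1.43 times at 48 h. The order of the SDs depends on the scaling. Upper-quartile factors gave 32.9 ± 8.55 without silica, 56.9 ± 35.8 with 24 h of it and 82.2 ± 23.4 with 48 h (SD, n = 3).

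Library 2 was the highest of its group in untreated, at 24 h and at 48 h, by a small margin at 48 h. The libraries numbered 2 also listed the most mature miRNAs of their groups, 829, 713 and 912, against 486 to 621 in the other 6. The 24 h library 3, with the lowest level of its group, had the fewest mature reads and the fewest listed mature miRNAs of all 9. The part of library breadth and depth in the level of miR-7219-3p was not tested. Between libraries of the same number, 48 h stood above untreated in 3 of 3 pairs, at 2.93-fold, 1.54-fold and 3.12-fold for numbers 1, 2 and 3. For 24 h against untreated the ratios were 1.73, 1.68 and 0.963.

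Ranked by count among the mature miRNAs listed in its library, miR-7219-3p lay above the median in every library. Its rank was 213.5, 185 and 196 in untreated libraries 1, 2 and 3, where rank 1 is the most abundant. At 24 h it was 183, 130 and 219, and at 48 h it was 157, 162 and 131. The 48 h ranks were all nearer the top than the untreated ones, and the 24 h ranks again took in both the nearest and the farthest of the series. As a share, 17.7% to 44.9% of the mature miRNAs listed in a library lay above it. The most abundant miRNA over the 9 libraries, let-7c-5p, held 591 to 5516 times as many reads as miR-7219-3p in the same library. With each library thinned to 2158418 mature reads, the median rank was 200 in untreated, 183 at 24 h and 161 at 48 h, against 196, 183 and 157 unthinned.

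**Figure D2:**
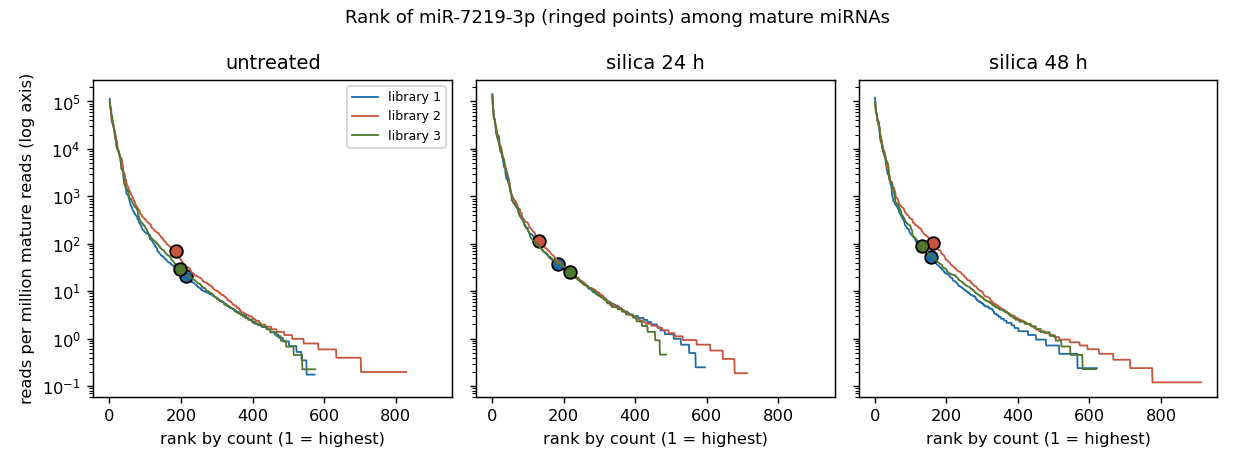
RPM of mature reads (log axis) against rank for every mature miRNA of each library, 1 panel per group and 1 line per library, with miR-7219-3p as ringed points. The points lie between ranks 130 and 219, on the slope below the few dominant miRNAs, and those of 48 h lie between 131 and 162.

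Its mean over the 9 libraries, 58.3 CPM, placed it 175th of the 453 miRNAs with enough counts to be tested. The miRNAs next to it in mean level were miR-149-5p (61.5 CPM) and miR-351-5p (59.6 CPM) above, and miR-671-5p (58.2 CPM) and miR-497a-5p (57.9 CPM) below. These neighbours were distributed differently over the groups. miR-149-5p averaged 30.8 ± 11.99 CPM in untreated, 121 ± 38.1 at 24 h and 32.5 ± 13.7 at 48 h. miR-351-5p had the same order of means as miR-7219-3p, with 39.3 ± 28.7, 63.9 ± 12.6 and 75.7 ± 37.8 CPM (SD, n = 3). miR-671-5p and miR-497a-5p had their lowest mean at 24 h, 16.9 ± 17.0 and 24.0 ± 0.33 CPM. None of these 4 passed the test described next in any comparison of 2 groups.

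The first comparison, 48 h of silica against no silica, asks whether the vesicle level of miR-7219-3p differs after the longer exposure. The 48 h level was 2.23-fold the untreated one, a log2 fold change of 1.16 ± 0.64 (SE) with a 95% interval from -0.25 to 2.56. In edgeR's quasi-likelihood test the unadjusted p was 0.0971 and the adjusted p 0.997 (Benjamini-Hochberg over 453 miRNAs). The difference did not pass the threshold of 0.05, and the interval covers both no difference and a 5.89-fold higher level. With the replicate number as a block, which fits differences between libraries of the same number, the log2 fold change was 1.32 ± 0.47 (SE) with a 95% interval from 0.29 to 2.34. That interval leaves out 0, at an unadjusted p of 0.0169, while the adjusted p was 0.982 (edgeR, Benjamini-Hochberg) and 1.99% of the tested miRNAs had an unadjusted p under 0.05 in that fit. The two-sided exact permutation test on log2 CPM gave p = 0.1, the smallest that 3 against 3 libraries can give, or 0.286 adjusted over the 4 comparisons. Among fits without 1 library the log2 fold change was lowest, 0.82, without the untreated library 1 and highest, 1.71, without the untreated library 2.

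Over all miRNAs of this comparison edgeR called 0 of 453 (0%), with 4 at an unadjusted p under 0.05 (0.883%). DESeq2 called 1 and limma-voom 0, and miR-7219-3p was not the 1. By log2 fold change it was 22nd from the top, so 4.86% of the tested miRNAs had a value at least as high, and by p it was 13th. The median log2 fold change of all 453 was 0.03. The 48 h and untreated groups did not overlap, with 48 h higher, for 10 of the 453 (2.21%), and miR-7219-3p was among them with the fourth highest log2 fold change. The separation depends on the scaling. It held with TMM, with DESeq2's size factors (lowest 48 h 63.0, highest untreated 53.9) and with upper-quartile factors (67.8 and 42.4). It was lost as RPM of mature reads, where the 48 h library 1 stood at 53.4 and the untreated library 2 at 69.6, and as RPM of all counted reads, where they stood at 19.5 and 24.4.

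The other 9 miRNAs with separate and higher 48 h libraries, named after their values were seen, were miR-423-3p, miR-10a-5p, miR-328-3p, let-7j, miR-375-3p, miR-9-3p, miR-382-5p, miR-1934-5p and miR-6967-3p. Of these, miR-423-3p was the most abundant, at 5637 ± 415 CPM at 48 h and 4367 ± 1073 in untreated, and miR-10a-5p, whose gene lies in the Hoxb cluster, stood at 2444 ± 906 and 1246 ± 409 (SD, n = 3). Those with a larger log2 fold change than miR-7219-3p were scarce: miR-382-5p of the imprinted Dlk1-Dio3 region averaged 3.05 CPM at 48 h, the islet miRNA miR-375-3p 8.26 CPM and miR-6967-3p 4.29 CPM. Each of the 10 had the same edgeR adjusted p of 0.997 (Benjamini-Hochberg).

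**Figure D3:**
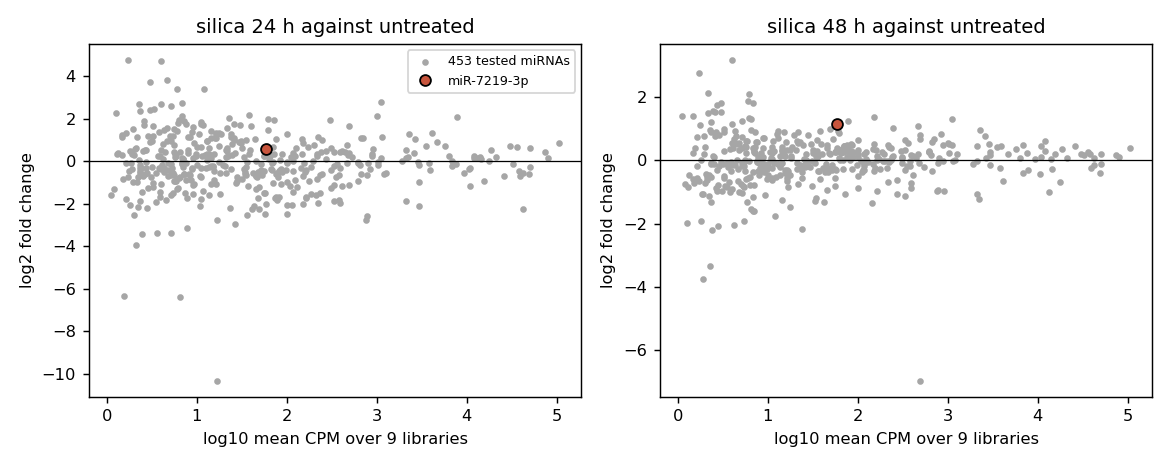
Log2 fold change against log10 mean CPM for the 453 tested miRNAs (grey) at 24 h and at 48 h against untreated, with miR-7219-3p in red. At 48 h the red point lies at 1.16 among the highest for its abundance, and at 24 h at 0.59 within the bulk of the points.

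For 24 h of silica against untreated cells, which asks about the shorter exposure, the level of miR-7219-3p was 1.503-fold the untreated one. The log2 fold change was 0.59 ± 0.64 (SE) with a 95% interval from -0.80 to 1.98, and the adjusted p was 0.749 (edgeR, Benjamini-Hochberg). The two-sided exact permutation p was 0.6. A log2 fold change at least as high stood for 26.9% of the tested miRNAs, whose median was -0.07. The higher mean at 24 h rests on library 2 of that group: without it the log2 fold change was -0.20. Without the untreated library 2 it was 1.16, and without the untreated library 1 or 3 it was 0.24 or 0.37. Here edgeR called 0 of 453 (0%), with 46 at an unadjusted p under 0.05 (10.2%), DESeq2 4 and limma-voom 0. The groups overlapped for miR-7219-3p and were separate with 24 h higher for 10.4% of the tested miRNAs. With the replicate number as a block edgeR called 3, and miR-7219-3p, at an adjusted p of 0.576, was not one of them.

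The direct comparison of 48 h with 24 h asks whether the exposures differ from each other. The 48 h level was 1.48-fold the 24 h one, with a log2 fold change of 0.57 ± 0.63 (SE), a 95% interval from -0.82 to 1.96 and an adjusted p of 0.716 (edgeR, Benjamini-Hochberg). The two-sided exact permutation p was 0.4. Of the tested miRNAs, 32.2% had a value at least as high. Without the 24 h library 2 the log2 fold change was 1.33, and without the 24 h library 3 it was 0.25. edgeR called 0 of 453 here (0%), with 44 at an unadjusted p under 0.05 (9.71%), DESeq2 6 and limma-voom 0. The groups overlapped for miR-7219-3p and were separate with 48 h higher for 10.4%. With the replicate number as a block edgeR called 3, without miR-7219-3p.

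The design text speaks of macrophages with silica or without, and the 6 libraries of both times were therefore also set against the 3 untreated ones. This shares its libraries with the comparisons above. The average of the 24 h and 48 h coefficients gave 1.83-fold the untreated level, a log2 fold change of 0.87 ± 0.57 (SE) with a 95% interval from -0.38 to 2.12 and an adjusted p of 0.98 (edgeR, Benjamini-Hochberg). A value at least as high stood for 11% of the tested miRNAs. Without the untreated library 2 it was 1.44, without the 24 h library 2 it was 0.46 and without the untreated library 1 it was 0.53. The silica library was the higher one in 15 of 18 pairs. The two-sided exact permutation p was 0.143, where 84 arrangements can give 0.0238 at the smallest. edgeR called 0 of 453 (0%), with 14 at an unadjusted p under 0.05 (3.09%), DESeq2 2 and limma-voom 0, and 1 with the replicate number as a block, which was not miR-7219-3p (log2 fold change 0.93 with a 95% interval from 0.02 to 1.84, adjusted p 0.703). All silica libraries lay above all untreated ones for 1.32% of the tested miRNAs, and miR-7219-3p was not among these.

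**Figure D4:**
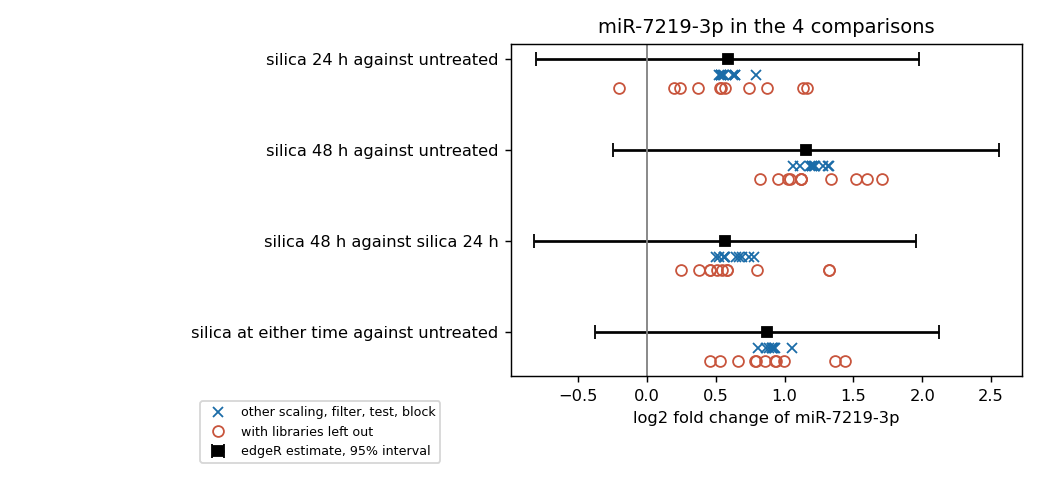
Log2 fold change of miR-7219-3p in the 4 comparisons: edgeR estimate with its 95% interval (black squares), values under other scalings, filters, tests or the replicate block (blue crosses) and values with 1 or more libraries left out (red circles). Every black interval includes 0, and 1 of the crosses and circles lies to the left of 0, at -0.20 for 24 h against untreated.

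The pattern of miR-7219-3p over the 9 libraries was set beside that of the 289 other tested miRNAs with a mean of at least 10 CPM, as Pearson's r of log2(CPM + 1). The median r was 0.13, the highest 0.77 and the lowest -0.81, so 0 of the 289 reached 0.8. These are descriptions over 9 libraries that share scaling and depth with each other. The 6 most alike are printed with their mature sequences (RefSeq, GRCm38.p6, 5′ to 3′), with bases 2 to 8, the seed, in capitals, to show whether these 6 share a seed with each other.
let-7f-1-3p: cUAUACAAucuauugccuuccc
miR-92a-1-5p: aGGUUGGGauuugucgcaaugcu
miR-30e-5p: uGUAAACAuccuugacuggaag
miR-18a-3p: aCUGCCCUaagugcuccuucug
miR-142a-5p: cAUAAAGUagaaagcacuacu
miR-125b-2-3p: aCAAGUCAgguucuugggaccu
The 6 have 6 different seeds. Their hairpins lie on chromosomes 13, 14, 4, 14, 11 and 16 in this order, and both of those on chromosome 14 belong to the miR-17~92 cluster.

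The closest, let-7f-1-3p, a passenger strand of the let-7 family, had r = 0.77 (Spearman's rho 0.80). It stood at 6.33, 18.6 and 7.49 CPM in untreated libraries 1, 2 and 3, at 9.04, 14.9 and 1.55 CPM at 24 h, and at 19.9, 24.2 and 13.4 CPM at 48 h. As with miR-7219-3p, library 2 was the highest of each group and the 24 h library 3 the lowest of its group. Choice by r over these same libraries favours such a match, and also a high r within groups. The r of the other 5 ran from 0.66 for miR-125b-2-3p to 0.73 for miR-92a-1-5p. Once group means were removed, r was 0.70 to 0.85 for the 6, the highest being miR-142a-5p, a miRNA of blood cells. Their log2 fold changes at 48 h against untreated were 0.20 to 0.82, all below the 1.16 of miR-7219-3p, and at 24 h they were -0.91 to -0.06, where miR-7219-3p had 0.59. None of the 6 passed the edgeR test in a comparison of 2 groups. At 24 h the sign of all 6 was thus opposite to that of miR-7219-3p.

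At the other end, r was -0.75 for miR-150-5p, a miRNA of mature lymphocytes, -0.80 for miR-1198-5p and -0.81 for miR-5106. miR-5106 stood at 69.4, 1.02 and 36.3 CPM in untreated libraries 1, 2 and 3, at 28.4, 7.29 and 47.7 at 24 h and at 15.6, 0.94 and 7.37 at 48 h. It was lowest in library 2 of each group, where miR-7219-3p was highest. miR-1198-5p, far more abundant, ran from 3067 CPM in the 48 h library 2 to 25997 in the 24 h library 1.

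**Figure D5:**
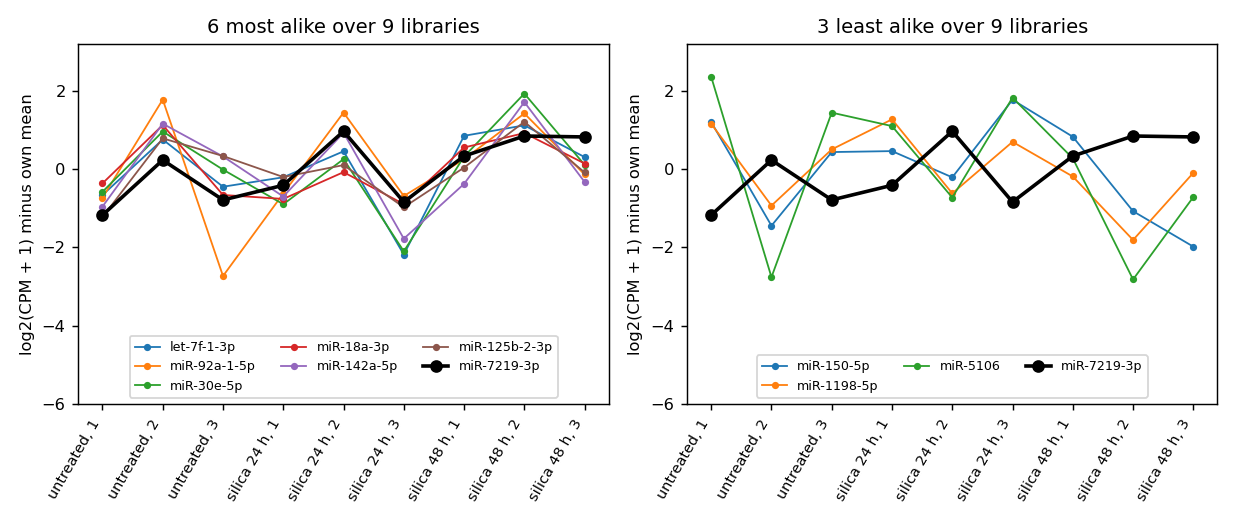
Log2(CPM + 1) less each miRNA's own mean in the 9 libraries, for miR-7219-3p (black) with the 6 miRNAs most alike (left) and the 3 least alike (right). The lines join libraries only to guide the eye. On the left the lines peak in library 2 of most groups, and on the right they dip there.

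miR-7219-3p belongs to the miRNAs with high, late-assigned names. Of the 341 mature miRNAs numbered from 6000 to below 8000 that were listed, 160 had fewer than 10 reads in all and 31 were listed in all 9 libraries, miR-7219-3p among them. It had the second highest total of the 341, after miR-6546-5p (235 CPM on average) and before miR-7669-3p (56.3 CPM), and 7.85% of their 36987 reads. Of the 64 tested, 0 passed in any comparison of 2 groups (edgeR). At 48 h against untreated 24 of the 64 had a positive log2 fold change, where 52.5% of all tested miRNAs did, with a median of -0.11 against 0.03 over all. At 24 h 33 of the 64 were positive, where 46.6% of all were, with a median of 0.22 against -0.07. The late-named miR-7669-3p averaged 58.5 ± 41.5 CPM in untreated, 70.2 ± 18.2 with 24 h of silica and 40.1 ± 19.1 with 48 h (SD, n = 3), with its lowest mean where miR-7219-3p had its highest. In contrast miR-6546-5p had its highest mean at 48 h, 315 ± 120.0 CPM, with 239 ± 144 in untreated and 151 ± 104 at 24 h.

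Among 19 miRNAs recalled from work on silica, vesicles or lung fibrosis, a list that includes miR-7219-3p and may include others picked from these libraries, 16 were tested and 0 passed in any comparison of 2 groups. At 48 h 10 of the 16, with miR-7219-3p among them, had a positive log2 fold change, where 52.5% of all tested miRNAs did. The median of the 16 was 0.13 against 0.03 over all miRNAs. The 1.16 of miR-7219-3p was the highest of the 16, ahead of 1.10 for miR-125a-5p (622 ± 355 CPM at 48 h and 291 ± 29.7 in untreated). At 24 h 5 of the 16 were positive, where 46.6% of all tested miRNAs were, with a median of -0.23 against -0.07. The abundant members miR-21a-5p, raised in many fibrotic tissues, miR-34a-5p, a p53 target, and miR-29a-3p, which represses collagens, had log2 fold changes of 0.20, 0.07 and 0.47 at 48 h. Of 11 tested miRNAs of a list on inflammation 0 passed. At 24 h 4 of the 11 were positive and at 48 h 6, where 46.6% and 52.5% of all tested miRNAs were. Among them miR-155-5p, the classic miRNA of activated macrophages, averaged 800 ± 93.4 CPM in untreated, 760 ± 169 with 24 h of silica and 841 ± 215 with 48 h (SD, n = 3).

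The labelled source was checked with marker miRNAs, given as the range of their summed CPM over libraries. All 8 myeloid markers were listed, led by miR-146a-5p, at 20978 to 72831 in untreated, 40847 to 52861 at 24 h and 28843 to 67382 at 48 h, though miR-146a-5p alone, which many cell types express, carried most of that sum. The more restricted miR-223-3p and miR-142a-3p averaged 126 and 74.2 CPM over the 9 libraries, below the 1154 CPM of the liver miRNA miR-122-5p and the 1016 CPM of the red blood cell miRNA miR-451a. miR-511-5p and miR-511-3p, from the gene of the mannose receptor Mrc1, had 2 and 20 reads in all. The 7 serum and red blood cell markers, which include the broadly expressed miR-16-5p, stood at 10114 to 33164, 11572 to 15217 and 8157 to 43071. The 7 markers of fibroblasts, smooth muscle and endothelium stood at 434 to 2242, 644 to 1608 and 535 to 1053, and the 8 of epithelium at 211 to 307, 187 to 287 and 227 to 333. All 22 markers of other sources had reads, and the ranges of the 3 groups overlapped for each list, whose sums follow their most abundant members. Single members could lie apart without passing the edgeR test. Of the tested members of the other-source lists, miR-451a (1952 ± 1289 CPM at 24 h and 444 ± 259 in untreated) and miR-143-3p (68.7 ± 24.6 and 15.2 ± 9.14) were separate and higher at 24 h, as 10.4% of all tested miRNAs were. miR-375-3p was so at both times, with 10.2 ± 5.5 CPM at 24 h, 8.26 ± 4.8 at 48 h and 2.29 ± 0.44 in untreated. At 48 h 2.21% of all tested miRNAs were separate and higher, and 1.32% had all silica libraries above all untreated ones. Separate and lower at 24 h were the epithelial miR-200c-3p and miR-141-3p. The share of all tested miRNAs that were separate and lower was not counted. miR-200c-3p averaged 54.9 ± 14.2 CPM at 24 h and 80.0 ± 9.72 in untreated, and miR-141-3p 3.19 ± 1.42 and 14.3 ± 10.8. Of the 7 tested epithelial markers, 2 had a positive log2 fold change at 24 h, where 46.6% of all tested miRNAs did. Their median was -0.54 against -0.07 over all. Of the 5 tested serum and red blood cell markers, 3 were positive and 2 negative at 24 h, with miR-16-5p at -0.91. Of the 6 tested markers of fibroblasts, smooth muscle and endothelium, 4 were positive and 2 negative, with miR-199a-3p at -1.10. miR-122-5p averaged 1820 ± 515 CPM at 24 h and 825 ± 527 in untreated, with overlap (SD, n = 3). The part of these sources in the level of miR-7219-3p was not tested.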

How the data were processed

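Small RNA of exosomes collected by ultracentrifugation was extracted with Trizol, per the labels' protocols. The authors deposited 1 table per library, which per the file headers holds read counts for each small RNA. A further column, headed TPM in the deposited files, is RPM over all counted reads, without length correction and was not tested. Per the submitters' processing notes, Trim Galore, Bowtie, HTSeq and the build mm10 were used. Versions, and how reads matching several miRNAs were assigned, are not given in the sources used here.

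Groups and replicate numbers came from the titles. Of 1101 mature miRNAs, filterByExpr (minimum count 10) kept 453, with at least 99.96% of each library's mature counts. TMM factors ran from 0.829 to 1.16. The quasi-likelihood test of edgeR 4.0.16 was fitted once to the 9 libraries, without a block, which left 6 residual degrees of freedom. P-values were adjusted by Benjamini-Hochberg over the 453, with a threshold of 0.05, in R 4.3.3. The SE is the log2 fold change divided by the root of the F statistic. The fit was tested on simulated data. Exact permutation tests used scipy 1.17.1. P-values reflect only the variation among a group's libraries, which may be technical.

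Alternatives were other scalings and filters, DESeq2 1.42.0, limma-voom 3.58.1, a replicate block, a fit of 2 groups alone and leaving out each library. The member, lists and tests were chosen with earlier results of these data known. The miRNAs named are miR-7219-3p, its other arm, the 6 most and 3 least alike, the nearest in mean level, and the abundant members of each list, and the late names next to it by total were added after values were seen. No miRNA sharing its seed was looked up.

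Same-numbered libraries deviated together from their group means, with r of 0.135, 0.469 and 0.163 between untreated and 24 h libraries and 0.173, 0.645 and 0.347 between untreated and 48 h libraries, so the numbers may pair the libraries, though no label says so. Libraries of different numbers reached 0.182 (untreated 1 with 24 h library 3) and 0.393 (untreated 1 with 48 h library 3), above the same-number values of untreated library 1. Between 24 h and 48 h, r was -0.06, 0.296 and 0.312. No library was a copy of another in its group, with 261 to 3147 chi-square units per degree of freedom between them.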

Additional observations from a re-analysis of the deposited data

How the results depend on the processing

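miR-7219-3p passed the threshold in 0 of the 4 comparisons, in the reported fit and under each of the 19, 19, 19 and 18 alternatives. Its log2 fold change stayed positive in all but 1 of them: at 24 h against untreated it was -0.20 without the 24 h library 2. With 1 library left out it ran from -0.20 to 1.16 at 24 h, from 0.82 to 1.71 at 48 h, from 0.25 to 1.33 between the times and from 0.46 to 1.44 for both times together, with the highest value against untreated each time without the untreated library 2. With the replicate number as a block the values were 0.54, 1.32, 0.78 and 0.93 (edgeR adjusted p 0.576, 0.982, 0.376 and 0.703). At 48 h the adjusted p was 0.752 to 1 over the alternatives and the unadjusted p 0.0169, its lowest, with the block. Chosen after seeing the data, the fit without the untreated and 48 h libraries of number 2 gave 1.14, 1.60, 0.46 and 1.37, and that without all 3 libraries of number 2 gave 0.19, 1.52, 1.32 and 0.86. The count of called miRNAs, 0 in each comparison, was in the same order 7, 1, 16 and 3 without a filter on low counts and 4, 1, 6 and 2 with DESeq2. With the replicate block it was 3, 0, 3 and 1. At 24 h it was also 1 with upper-quartile factors or with only the 2 groups compared, and 0 to 1 with a library left out, as it was between the times. As RPM of all counted reads the mean level was 14.5 in untreated and 33.7 at 48 h, a larger denominator by construction. Counting error alone gives the smallest count a 95% interval of 40.6 to 70.5 reads, and the part of depth and breadth in the spread between libraries was not tested.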
